A study of Mus musculus with 6 samples.

Results

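SOX genes encode transcription factors that bind DNA through an HMG box, a domain related to that of the sex-determining factor SRY. The genes described here are Sox2, Sox4, Sox5, Sox6, Sox7, Sox9, Sox12, Sox13, Sox15 and Sox21. They were chosen by name, as the 10 SOX genes listed for description among 20 SOX genes with a row in the table of 55385 mouse genes, and all 10 were tested among 18504 genes. The remaining SOX genes, of which 2 were tested, were examined beside them.

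RNA was sequenced from PDVC57, an established mouse squamous carcinoma line of keratinocyte origin. The labels give a genotype of Sox2 KO (knockout) for 3 libraries and of Sox2 overexpression for the other 3, and the series' design text speaks of carcinoma cells with low or high Sox2 that were taken from grafted tumours. There was no unmodified PDVC57 group, so every difference is between overexpression and knockout. The labels name no construct, promoter, clone, host strain or age of the graft's host, and do not say whether replicates came from separate tumours, so p-values measure the spread between these libraries only. The study asked which programmes of tumour stem cells that depend on Sox2 affect neutrophils.

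Depth ranged from 31611892 to 35827402 counts with knockout and from 31247976 to 38543221 with overexpression. All 26 genes of an epithelial marker list were measured, with a summed level of 6142 to 10179 CPM (counts scaled to the size of each library) in knockout and 16768 to 23394 CPM in overexpression libraries. All 10 genes of a fibroblast marker list were lower with overexpression (adjusted p under 0.05, edgeR), as were 18.0% of all tested genes. Their summed level was 53107 to 81167 CPM with knockout and 283 to 473 CPM with overexpression, and none was at 0 throughout a group. Of 8 mural cell markers 7 were lower, with a sum of 519 to 692 CPM with knockout and 92.9 to 133 CPM with overexpression, and Notch3 was higher (37.7 and 65.6 CPM on average, adjusted p = 0.0358, edgeR), but at -0.42 on the log2 scale with libraries scaled to the epithelial markers. Leukocyte markers summed to 26.7 to 139.8 CPM against 14.1 to 28.7 CPM, with knockout replicate 3 the highest. In bulk RNA, fewer cells of a type and less RNA per cell cannot be told apart, and the part of these cell type differences in the SOX results was not tested beyond the rescaling given below.

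The family is divided into groups by the sequence of the HMG box. SoxB1 factors such as Sox2 activate genes in stem and progenitor cells and SoxB2 factors such as Sox21 mostly repress, while SoxC (Sox4, Sox11, Sox12), SoxD (Sox5, Sox6, Sox13), SoxE (Sox8, Sox9, Sox10), SoxF (Sox7, Sox17, Sox18) and SoxG (Sox15) act in other lineages. In skin, Sox9 is known for the hair follicle stem cells, and Sox2 is absent from normal interfollicular epidermis and present in squamous carcinomas. SOX factors bind short sites alone only weakly and usually act with a partner factor at a neighbouring site.

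The HMG boxes of 6 members show how near the genes are to each other in the part that binds DNA. The stretches below are 210 bases of coding sequence, or 70 codons, from a conserved point near the start of the HMG box, read from GENCODE M21 transcripts on GRCm38. Capitals mark each base that differs from Sox2.
Sox2: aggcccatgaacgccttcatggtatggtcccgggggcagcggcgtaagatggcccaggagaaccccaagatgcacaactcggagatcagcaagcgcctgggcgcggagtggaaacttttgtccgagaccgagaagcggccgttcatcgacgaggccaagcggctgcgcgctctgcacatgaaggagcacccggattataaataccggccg
Sox21: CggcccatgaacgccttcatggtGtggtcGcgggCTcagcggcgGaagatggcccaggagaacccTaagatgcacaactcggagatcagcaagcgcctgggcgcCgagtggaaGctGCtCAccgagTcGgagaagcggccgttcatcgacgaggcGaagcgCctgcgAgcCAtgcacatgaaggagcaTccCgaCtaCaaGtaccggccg
Sox15: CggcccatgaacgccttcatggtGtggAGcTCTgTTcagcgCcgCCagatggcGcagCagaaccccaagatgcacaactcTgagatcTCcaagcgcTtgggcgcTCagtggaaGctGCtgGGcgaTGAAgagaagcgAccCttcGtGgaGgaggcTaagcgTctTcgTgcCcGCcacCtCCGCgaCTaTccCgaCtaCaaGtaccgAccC
Sox9: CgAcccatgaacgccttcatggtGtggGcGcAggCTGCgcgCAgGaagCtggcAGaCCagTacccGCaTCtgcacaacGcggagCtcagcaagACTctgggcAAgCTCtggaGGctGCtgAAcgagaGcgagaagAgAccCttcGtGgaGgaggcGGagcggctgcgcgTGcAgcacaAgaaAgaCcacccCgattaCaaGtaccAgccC
Sox4: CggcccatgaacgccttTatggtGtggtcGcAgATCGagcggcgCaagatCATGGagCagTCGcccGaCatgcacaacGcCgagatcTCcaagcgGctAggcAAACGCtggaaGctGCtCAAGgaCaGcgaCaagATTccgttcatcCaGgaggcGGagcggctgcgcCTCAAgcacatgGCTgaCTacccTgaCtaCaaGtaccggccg
Sox13: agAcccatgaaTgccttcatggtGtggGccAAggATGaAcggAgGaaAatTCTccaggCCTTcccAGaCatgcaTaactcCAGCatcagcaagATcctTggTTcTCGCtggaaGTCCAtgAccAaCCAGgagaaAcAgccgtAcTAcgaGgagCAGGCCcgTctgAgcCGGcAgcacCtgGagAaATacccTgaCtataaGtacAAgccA
The Sox2 stretch lies at chr3:34650548-34650757 on the plus strand and the Sox21 stretch at chr14:118235399-118235608 on the minus strand, each within a single exon. Those of Sox15 (chr11:69655517-69655726, plus strand) and Sox4 (chr13:28952632-28952841, minus strand) are also uninterrupted. An intron divides those of Sox9 (chr11:112782903-112783905, plus strand) and Sox13 (chr1:133384564-133385565, minus strand). Sox21 was identical to Sox2 at 88.1% of the bases, and 19 of its 25 differences fell on the last base of a codon. Identity to Sox2 was 73.8% for Sox15, 71.9% for Sox9, 69.5% for Sox4 and 63.3% for Sox13.

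This likeness bears on how reads are assigned. The submitters' processing notes name kallisto, which matches reads to transcripts by short words and divides a read that fits several transcripts. Of the 2027 distinct 31-base words of the annotated Sox2 transcript, 18 (0.888%) also occur in another SOX gene, among them Sox1, Sox3 and Sox21. Sox21 shares 13 of its words with other SOX genes (0.345%), Sox13 5 (0.115%) and Sox15 none. Overlap with genes outside the family was largest for 3 members and at most 0.983% (Sox7) for the others. Of the words of Sox21, 18.3% occur in Gm4675 or another such gene, and 9.37% of those of Sox5 in Sox5os1 or another. Of those of Sox4, 54.3% occur in Gm26735, for which no row of that symbol was found, so it could not be examined.

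The edgeR quasi-likelihood test, with a threshold of 0.05 on the adjusted p, called 5 of the 10 members and 31.6% of all tested genes. Sox2 is among the 5, and as the gene the labels target its difference was set by the design. It is part of every count and median of the members given here. Sox2, Sox21, Sox13 and Sox15 rose with overexpression, a direction called for 13.6% of all tested genes, and Sox7 fell, a direction called for 18.0%. Sox4, Sox5, Sox6, Sox9 and Sox12 did not pass. The median log2 fold change, overexpression over knockout, was 0.43 over the 10 members and -0.02 over all tested genes. Libraries of the groups did not overlap for 5 members, against 50.9% of all tested genes, so the lack of overlap alone did not set the members apart.

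**Figure D1:**
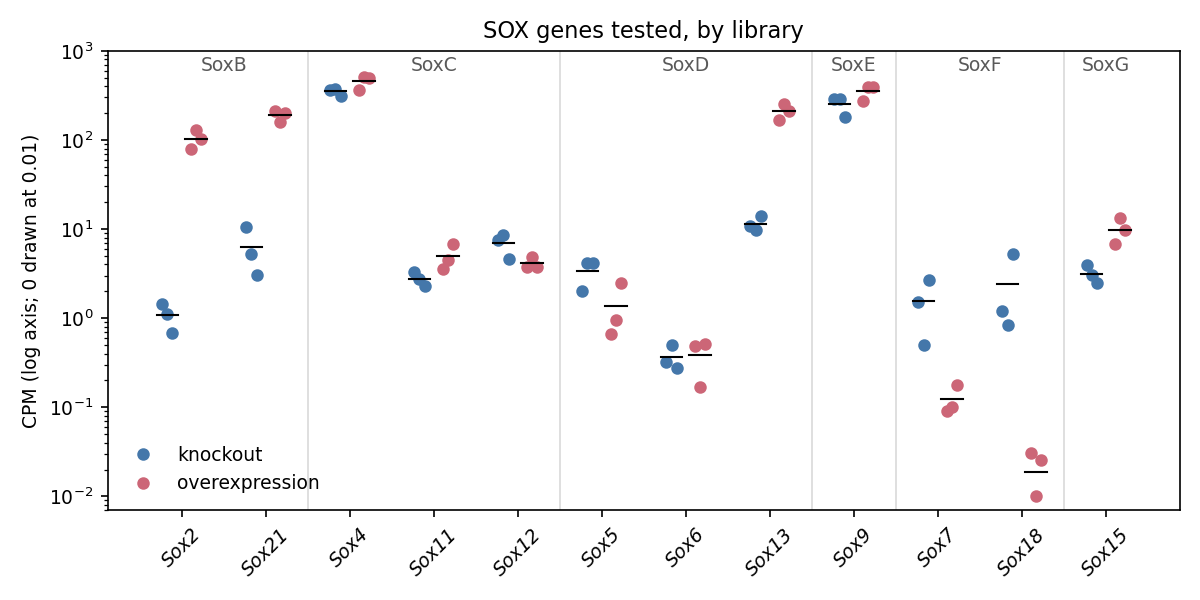
Level of the 12 tested SOX genes in each library, in CPM on a log axis, with 0 drawn at the foot, ordered by SOX group; points are libraries and bars are group means of 3. Sox2, Sox21 and Sox13 lie at or below 14.03 CPM in all knockout libraries and at or above 78.3 CPM in all overexpression libraries, while Sox4 and Sox9 lie between 180.0 and 504 CPM in every library.

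The SoxB genes differed most among the members that rose. Sox2 (ENSMUSG00000074637, chromosome 3, 34650405 to 34652461, plus strand), the gene the labels target, had 49, 34 and 25 counts in the knockout libraries and 2566, 3790 and 4095 in the overexpression libraries. Its levels were 1.44, 1.12 and 0.685 CPM with knockout, and 78.3, 128 and 104 CPM with overexpression. The labels' groups were therefore separated by Sox2, a 95.6-fold difference (log2 fold change 6.58, standard error 0.33, adjusted p = 2.29e-06, edgeR). Counts from a supplied Sox2 copy and from the genomic gene cannot be told apart in this table.

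The non-coding gene Sox2ot, which spans the Sox2 locus on the same strand without sharing exons with it, had 21, 21 and 24 counts with knockout and 8, 13 and 10 with overexpression. Every overexpression library was below every knockout library, in the direction opposite to Sox2. This difference was not called (log2 fold change -1.07, 95% interval -2.07 to -0.08, adjusted p = 0.0961, edgeR). It was called under the scaling to the epithelial list that is described below (-2.32, adjusted p = 0.00275, edgeR). That scaling put the median of all tested genes at -1.26 and called 13470 of 18504 genes lower, so the call adds little for Sox2ot.

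The 250 bases before the RefSeq start of Sox2 (GRCm38.p6, chr3:34649745-34649994, plus strand) are shown because SOX factors and POU-domain factors such as Oct4 act together on Sox2's own control regions elsewhere at the locus. Capitals mark matches to ACAAAG, a core that SOX and TCF/LEF factors can bind, and to ATGCAAA, a core of POU-domain sites.
Sox2 upstream: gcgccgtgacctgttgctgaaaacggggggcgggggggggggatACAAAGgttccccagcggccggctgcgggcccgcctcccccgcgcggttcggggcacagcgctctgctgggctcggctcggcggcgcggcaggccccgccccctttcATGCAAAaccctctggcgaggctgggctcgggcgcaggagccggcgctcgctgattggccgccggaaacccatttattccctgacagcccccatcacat
Both strands were searched for these and for AACAAT, another SOX core, and the matches found do not overlap each other. ACAAAG occurs in 16.5% of 27025 promoter windows of this length, ATGCAAA in 4.06% and AACAAT in 9.65%. Windows were found for 8 members. Sox6 also held ACAAAG and, in 1 of its 6 windows, AACAAT. Sox12 held ATGCAAA, and the windows of Sox4, Sox5, Sox13, Sox15 and Sox21 held none of the 3 letter strings. The windows differ in place. That of Sox5 lies inside the annotated gene, and 165 bases of that of Sox13 are Sox13 exon. The windows of Sox2 and Sox15 end before the start of the GENCODE gene. A match is a description of the letters only.

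Sox21 (ENSMUSG00000061517, chromosome 14, 118233232 to 118237030, minus strand), the SoxB2 member, had 10.6, 5.29 and 3.07 CPM in the knockout libraries and 210.1, 158 and 199 CPM in the overexpression libraries. It rose 29.9-fold, and the highest knockout library lay far below the lowest overexpression library. On the log2 scale this was 4.90 (standard error 0.43, adjusted p = 5.35e-05, edgeR). Knockout replicate 1 moved this value: the mean of the knockout libraries was 6.32 CPM with it and 4.18 CPM without it, where the fold became 45.7.

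The lncRNA gene Gm4675 shares exon sequence with Sox21 on the other strand. It had 16, 6 and 7 counts with knockout and 147, 159 and 204 with overexpression (log2 fold change 4.11, adjusted p = 0.00014, edgeR). Reads of Sox21 and Gm4675 cannot be told apart where they overlap if strand was not used. Gm4675 carried 204 counts in the library in which Sox21 carried 7858.

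Sox13 (ENSMUSG00000070643, chromosome 1, 133382303 to 133424377, minus strand) is a SoxD factor, a group with no activation domain of its own that acts with other factors, and is known for T cell lineages. It had 10.7, 9.82 and 14.03 CPM with knockout and 167, 254 and 213 CPM with overexpression. The 18.3-fold rise (log2 fold change 4.20, standard error 0.23, adjusted p = 3.74e-06, edgeR) was among the 0.497% of tested genes that passed the threshold with a fold change at least that large. The other SoxD genes were not called, and their difference from Sox13 was not tested. Sox5, known for cartilage and neural cells, had 68, 124 and 150 counts with knockout and 22, 28 and 99 with overexpression, with overlapping groups (log2 fold change -1.29, 95% interval -2.50 to -0.08, adjusted p = 0.0976, edgeR).

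Overexpression replicate 3 had more Sox5 counts than the other overexpression libraries. Without that library the adjusted p was 0.0201 and the log2 fold change -2.05, and without each of the other 5 libraries Sox5 was not called, with adjusted p-values of 0.0656 to 0.254. Sox6 was near the limit of measurement in both groups, with 10 to 15 counts in the knockout libraries and 5 to 20 in the overexpression libraries. Its log2 fold change was 0.11 with a 95% interval from -1.13 to 1.35 (adjusted p = 0.893, edgeR), and its sign was negative without knockout replicate 3 (-0.05), overexpression replicate 1 (-0.06) or overexpression replicate 3 (-0.12).

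Sox15 (ENSMUSG00000041287, chromosome 11, 69655314 to 69656727, plus strand), the SoxG member, known in stratified epithelium and in muscle regeneration, had 3.96, 3.04 and 2.47 CPM with knockout and 6.71, 13.2 and 9.64 CPM with overexpression. The groups did not overlap, and the rise was 3.12-fold (log2 fold change 1.64, standard error 0.32, adjusted p = 0.00462, edgeR). The epithelial markers were higher in the same libraries (20 of 26 called higher, against 13.6% of all tested genes, median log2 fold change 1.17). With libraries scaled to the epithelial list instead, Sox15 was higher by 0.41 on the log2 scale and did not pass (adjusted p = 0.374). Of all tested genes, 2.77% passed with a rise at least as large as that of Sox15. Its exons meet those of Mpdu1 over 31 bases on the other strand, and Mpdu1 differed by 0.23 on the log2 scale (adjusted p = 0.397, edgeR).

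Sox4 and Sox9 were the abundant members in both groups. Sox4 (chromosome 13, 28948919 to 28953713, minus strand), a SoxC factor of progenitors and many carcinomas, had 366, 374 and 309 CPM with knockout and 366, 504 and 488 CPM with overexpression. Overexpression replicate 1 lay within the knockout range. The log2 fold change was 0.37 (95% interval -0.04 to 0.78, adjusted p = 0.149, edgeR), and it turned to -0.87 under scaling to the epithelial markers (adjusted p = 0.0097). A difference above 0.78 on the log2 scale lies outside the interval of the first value.

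Sox9 (chromosome 11, 112782224 to 112787760, plus strand) had 289, 288 and 180.0 CPM with knockout and 275, 392 and 390.02 CPM with overexpression. Its groups overlapped as well. The log2 fold change was 0.48 (95% interval -0.04 to 1.01, adjusted p = 0.147, edgeR), and -0.73 under the epithelial scaling (adjusted p = 0.025). Sox12 (chromosome 2, 152393611 to 152398063, minus strand), the low-abundance SoxC member, had 255, 260 and 167 counts with knockout and 122, 143 and 148 with overexpression. Its log2 fold change was -0.75 (95% interval -1.42 to -0.07, adjusted p = 0.0889, edgeR). Knockout replicate 3 was the lowest knockout library for Sox12, and without it the adjusted p was 0.0302.

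**Figure D2:**
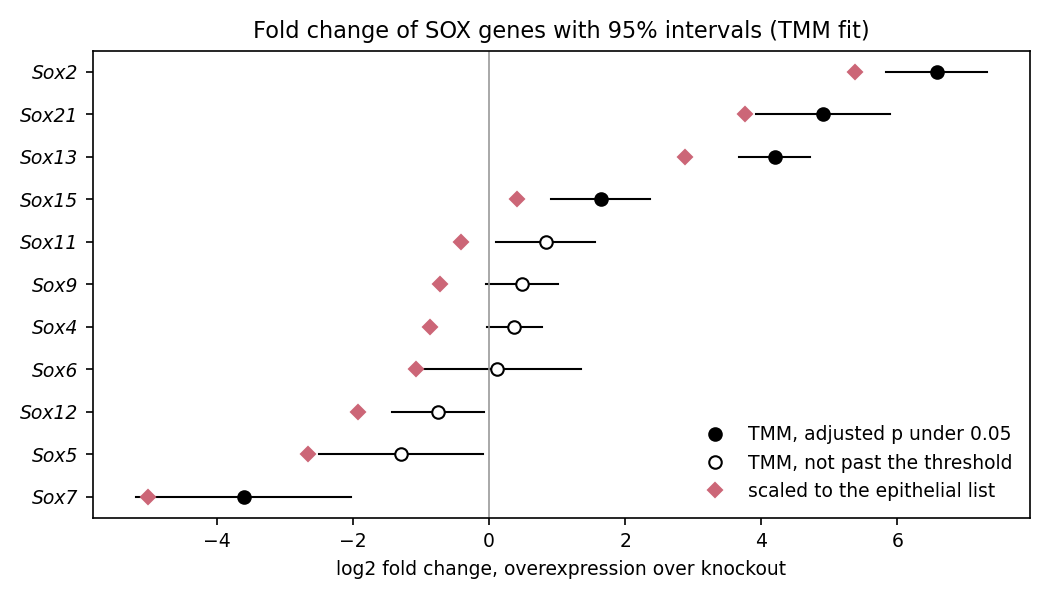
Log2 fold change, overexpression over knockout, of 11 tested SOX genes with TMM normalization (circles, with 95% intervals) and with libraries scaled to the epithelial marker list (diamonds). Sox2, Sox21 and Sox13 stay at or above 2.88 with either scaling, and Sox4, Sox9, Sox6 and Sox11 change sign between them; Sox18, at the floor in overexpression libraries, is left out.

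With the epithelial scaling the median over all tested genes was at -1.26 on the log2 scale in place of -0.02, and 2.31% of the calls were higher against 43.1% before. Rescaling the libraries shifts all genes by nearly the same amount. Values relative to the median of all tested genes were therefore bound to change little and give no separate support. On that measure Sox2 was at 6.60 with TMM and 6.64 with the epithelial scaling. In the same order Sox21 was at 4.92 and 5.03, Sox13 at 4.21 and 4.14, and Sox15 at 1.66 and 1.67. Sox9 was at 0.50 and 0.53, and Sox4 at 0.39 in both. Under the epithelial scaling 8 members passed the threshold, with Sox4, Sox5, Sox9 and Sox12 lower and Sox15 no longer called. It called 13788 of the 18504 tested genes, 13470 of them lower, so these calls alone did not set the members apart.

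Levels of different genes were compared per kb of annotated exon. With knockout, Sox4 (72.9 ± 7.41 CPM per kb, SD, n = 3) and Sox9 (61.0 ± 15.1) led and overlapped each other. Next came Sox15 (3.66 ± 0.873), Sox13 (2.67 ± 0.515), Sox21 (1.66 ± 1.02) and Sox12 (1.55 ± 0.466), each overlapping its neighbour in this order. Sox2 (0.526 ± 0.183), Sox7 (0.476 ± 0.332), Sox5 (0.237 ± 0.0848) and Sox6 (0.0246 ± 0.00787) were the lowest members. Between neighbouring members, the libraries left a gap between Sox9 and Sox15, between Sox12 and Sox2, and between Sox5 and Sox6.

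With overexpression, Sox4 (94.4 ± 15.7 CPM per kb, SD, n = 3) and Sox9 (85.2 ± 16.2) still led. Sox2 (50.2 ± 12.1), Sox21 (49.8 ± 7.14) and Sox13 (49.02 ± 10.1) formed the next tier, below Sox9 in every library and not different from each other beyond their spread. The Sox2 value uses the full annotated exon length of 2.057 kb. The labels do not say how much of it a supplied copy held, and a shorter copy would place Sox2 higher. Its rank, the ratios to Sox2 and the sums with Sox2 rest on that length. Sox15 (11.5 ± 3.79) stood apart below them, followed by Sox12 (0.921 ± 0.143), Sox5 (0.0956 ± 0.0687), Sox7 (0.0374 ± 0.0142) and Sox6 (0.0261 ± 0.0128). Within libraries the order of the tier varied, since the ratio of Sox21 to Sox2 per kb was 1.45 in overexpression replicate 1, 0.669 in replicate 2 and 1.04 in replicate 3. The ratio of Sox13 to Sox2 was steadier, at 1.02, 0.945 and 0.982.

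Summed over all 20 SOX genes, the level was 160.4, 160.3 and 122 CPM per kb in the knockout libraries and 284, 379.9 and 361 in the overexpression libraries. Sox4 and Sox9 together made up 88.7% to 92.1% of it with knockout and 50.3% to 54.3% with overexpression. The share of Sox2, Sox13, Sox15 and Sox21 was 4.84% to 6.59% with knockout and 45.2% to 49.2% with overexpression. These genes were grouped because they were called higher in this same comparison, and Sox2 is the gene the labels target. A larger pooled share therefore follows from the choice, and the values give only its size. Without Sox2 the sum was 246 to 318 CPM per kb with overexpression and 121 to 159.7 with knockout. These sums rest on TMM scaling and contain Sox4 and Sox9, which were not called. Under the epithelial scaling Sox4 was at -0.87 and Sox9 at -0.73 on the log2 scale. The sums were not computed under that scaling, so the direction of their difference holds for TMM only.

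**Figure D3:**
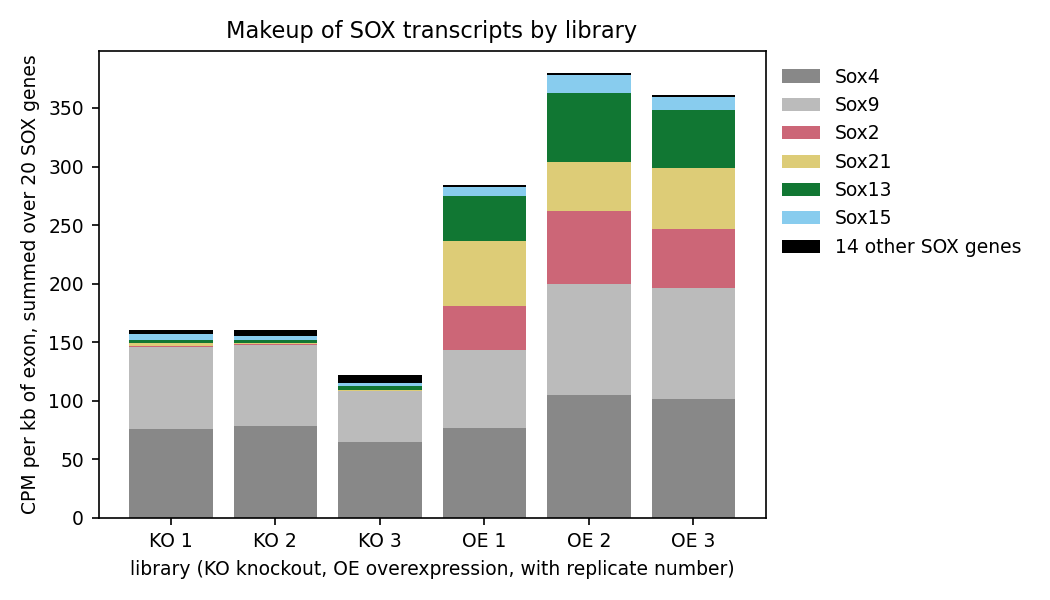
Stacked bars of the SOX transcript level in each library, in CPM per kb of exon, for 6 members and the sum of the 14 other SOX genes. The knockout bars are almost wholly Sox4 and Sox9, and the overexpression bars, 284 to 379.9 CPM per kb high, add Sox2, Sox21 and Sox13 in layers of similar height. The height of the Sox2 layer rests on its full annotated exon length.

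Sox7 was the member that fell. It is a SoxF factor, a group known for the development of blood and lymph vessels. It had 52, 15 and 98 counts with knockout and 3, 3 and 7 with overexpression, all below the lowest knockout library. It was 12.2-fold lower (log2 fold change -3.61, standard error 0.70, adjusted p = 0.00447, edgeR). The knockout mean was 1.57 CPM, or 1.01 CPM when replicate 3 was left out, and the difference was then 7.85-fold (adjusted p = 0.00877, edgeR).

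The other SoxF genes had their counts in the same libraries. Sox18 had 41, 25 and 191 counts with knockout and 1, 0 and 1 with overexpression. Against a floor of 3 counts in a library it was at least 23.9-fold lower (adjusted p = 0.00157, edgeR), and at least 9.99-fold lower without knockout replicate 3. Sox17 had 1, 3 and 101 counts with knockout and 0, 0 and 1 with overexpression, did not pass the count filter, and was under the floor in both groups without knockout replicate 3.

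Endothelial markers were, like the SoxF genes, mostly lower with overexpression. Of 10 markers, 9 were tested and 8 were lower past the threshold, with Tek the exception (adjusted p = 0.216, edgeR). Of all tested genes, 18.0% were called lower. Their summed level was 45.4, 65.9 and 128 CPM in knockout replicates 1, 2 and 3, highest in the library that was highest for Sox7, Sox17 and Sox18, and 14.3 to 21.1 CPM with overexpression. From knockout replicate 1 to 2 the sum rose while Sox7 and Sox18 fell, and Sox17 stayed at or under 3 counts. Cdh5, Emcn and Cldn5, junction and surface proteins of endothelium, had at most 3 counts in every overexpression library. Other markers of the list remained there: Tek had 13.8 CPM on average, and Pecam1 had 68, 69 and 144 counts. The part of endothelial cells in the SoxF result was not tested.

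**Figure D4:**
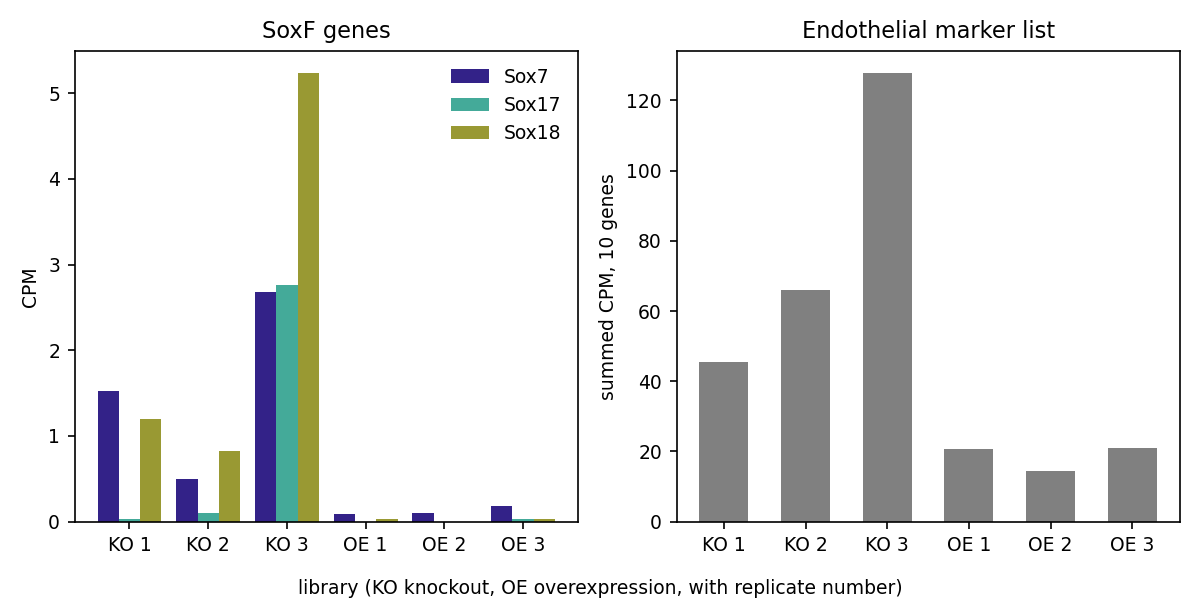
Left, Sox7, Sox17 and Sox18 in each library in CPM; right, the summed CPM of 10 endothelial markers in the same libraries. Knockout replicate 3 is highest in both panels, at 128 summed CPM, and the overexpression libraries hold at most 21.1.

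Among the remaining SOX genes, Sox11, the third SoxC gene and a factor of embryonic neurons, had 2.30 to 3.28 CPM with knockout and 3.60 to 6.70 CPM with overexpression, without overlap. It was not called (log2 fold change 0.83, adjusted p = 0.0797, edgeR) and was at -0.42 under the epithelial scaling. Sox10, the SoxE factor of Schwann cells and melanocytes, had 17, 120 and 10 counts with knockout and 0, 2 and 1 with overexpression, and did not pass the filter. Foxd3, a neural crest factor, was likewise highest in knockout replicate 2, with 4, 41 and 0 counts, and had none with overexpression, while the summed level of the 10-gene Schwann cell and melanocyte list was 89.4 to 120.1 CPM with knockout and 152 to 198 CPM with overexpression. Most of that sum was Erbb3, which rose from 66.8 to 138.6 CPM on average (adjusted p = 0.0148, edgeR) and was at -0.18 on the log2 scale under the epithelial scaling. Mitf, the melanocyte factor, fell from 215, 499 and 562 counts to 8, 7 and 11 (adjusted p = 3.44e-05, edgeR). The melanocyte genes Dct (adjusted p = 0.242), Pmel (0.216) and Tyr (0.478, edgeR) were not called and had overlapping groups. Pmel was higher on average with overexpression. Of the 8 tested genes of the list, 1 was called higher, 1 lower and 6 neither, with a median log2 fold change of -0.60. The part of such cells in the counts of Sox10 was not tested.

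Sox8 had at most 12 counts in a library. Sox30 had 3, 13 and 4 counts with knockout and none with overexpression. Sox1 had 24 counts in knockout replicate 3 and at most 2 elsewhere, Sry and Sox14 had at most 1 count, and Sox3 had none in any library, which allows up to 0.101 CPM in the library of the smallest effective size. The antisense genes Sox5os1 to Sox5os5 and Sox6os had no counts either, and Sox1ot was not called (log2 fold change -0.38, adjusted p = 0.553, edgeR).

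TCF/LEF factors carry an HMG box as well and act at the end of the Wnt pathway. All 4 genes were tested. Of them 1 rose and 2 fell, directions called for 13.6% and 18.0% of all tested genes. Their median log2 fold change was -0.78 against -0.02 over all genes. Tcf7l1, a repressor active in skin stem cells, fell from 17.8 ± 7.28 to 3.80 ± 0.627 CPM (SD, n = 3 each; log2 fold change -2.23, adjusted p = 0.000952, edgeR). Tcf7 rose from 14.3 ± 2.19 to 30.01 ± 7.56 CPM (SD, n = 3 each; log2 fold change 1.07, adjusted p = 0.00582, edgeR), a value that became -0.16 under the epithelial scaling. Tcf7l2 fell by 0.68 on the log2 scale (adjusted p = 0.0113, edgeR), with adjusted p-values of 0.0543 without knockout replicate 3 and 0.0532 without overexpression replicate 3. Lef1 was not called (log2 fold change -0.88, adjusted p = 0.0733, edgeR).

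Factors known to pair with SOX proteins were examined as a list of 14, of which 8 were tested. Trp63, the p63 gene of squamous epithelium that acts with SOX2 in squamous carcinoma, rose from 50.1 ± 14.2 to 142 ± 44.3 CPM (SD, n = 3 each; log2 fold change 1.504, adjusted p = 0.00387, edgeR), and was at 0.30 under the epithelial scaling, whose list contains it (adjusted p = 0.348). Pou3f1, a POU-domain factor of epidermis, was lower (log2 fold change -1.47, adjusted p = 0.0412, edgeR). That call held only in the fit without knockout replicate 3 among the 6 that left out a library, and its adjusted p was 0.0522 without knockout replicate 1 and 0.169 without knockout replicate 2. It was 0.112, 0.102 and 0.0729 without overexpression replicates 1, 2 and 3. The other 6 tested genes did not pass, Ctnnb1 (beta-catenin) having the smallest p of them (log2 fold change 0.33, adjusted p = 0.233, edgeR). The median of the list was 0.05, and Pou5f1 (Oct4), the partner of Sox2 in embryonic stem cells, had at most 2 counts in a library.

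Cartilage genes known as targets of Sox9, Sox5 and Sox6 were a further list of 12, with 8 tested and a median log2 fold change of -0.88. Col11a1 (fibrillar collagen XI) fell from 8.44 ± 1.97 to 0.333 ± 0.0311 CPM (SD, n = 3 each; log2 fold change -4.65, adjusted p = 1.41e-05, edgeR). Col2a1 (collagen II of cartilage) rose from 5, 2 and 10 counts to 27, 38 and 22 (log2 fold change 2.39, adjusted p = 0.0154, edgeR), still at or below 1.29 CPM in each library, and was not called under the epithelial scaling (1.11, adjusted p = 0.159). Matn3 and Comp, named after their values were seen, also fell: log2 fold change -3.51 (adjusted p = 0.0188) and -3.62 (adjusted p = 0.0204, edgeR). The fibroblast markers given above were lower in the same libraries as Col11a1, Matn3 and Comp, and their part in these differences was not tested.

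Genes whose pattern over the 6 libraries was most like that of each member were found by the root-mean-square distance of centred log2 CPM values among 11056 genes. SOX genes were left out of these candidates, so no member could be named as nearest to another. Nearest to Sox2 were Ly6g6c, a Ly6 family surface protein (distance 0.59), Sprr3, a cornified envelope precursor (0.60), and Mug1, a protease inhibitor (0.62). Ly6g6c was also nearest to Sox21 (0.40), with 0.777 CPM in knockout and 42.1 CPM in overexpression libraries on average. Sprr3 had no counts in the knockout libraries and was at least 80.0-fold higher with overexpression against a floor of 3 counts in a library. The gene nearest to Sox13 was Aldh3a1, an aldehyde dehydrogenase of epithelia (0.27), from 1.82 to 30.99 CPM. Susd1 was nearest to Sox15 (0.11), Odc1 to Sox9 (0.08), Dis3l2 to Sox4 (0.04), Ank to Sox12 (0.11), Duox1 to Sox5 (0.27), Arsk to Sox6 (0.18) and Nes, the intermediate filament nestin, to Sox7 (0.51).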

How the data were processed

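RNA-seq libraries of PDVC57 cells, 3 per genotype, were compared. The deposited values are unnormalized counts, whole numbers with 1 row per gene and 1 column per library. The submitters' processing notes name kallisto 0.44.0 and mm10 without their role. If kallisto made the counts, the authors rounded estimated counts. Strand setting and annotation are not given in the sources used here. Rows that name no mouse gene (96, of them 92 spike-in sequences) were left out, at up to 2.23e-05% of the counts. Symbols came from GENCODE M21 for 55144 of 55385 gene IDs, and positions and exon lengths from M21 on GRCm38. Upstream windows came from RefSeq (GRCm38.p6), where 8 of 10 members matched by symbol.

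After filterByExpr (at its minimum count of 10 and minimum total of 15) and TMM normalization, edgeR 4.0.16 in R 4.3.3 gave quasi-likelihood tests, with group as the only term and the Benjamini-Hochberg adjustment over 18504 genes (threshold 0.05). Standard errors are the log2 fold change divided by the square root of F. A count of 0 allows up to 3 counts, 0.0759 to 0.101 CPM by library, for counting error only. On simulated counts of 18074 genes for 2 such groups, the test recovered 74 of 100 genes changed 4-fold and 32 of 100 changed 2-fold. Of its 118 calls, 12 were false. The data had 5848 called genes, a far larger share than was changed in the simulation. The adjustment depends on that share, so these recoveries do not give the power for the SOX genes. The alternatives were RLE, upper-quartile and epithelial scaling, no filter, robust dispersion, a replicate block, DESeq2 1.42.0 and leaving out each library. The rule for named genes took all SOX genes, called genes of the partner and TCF/LEF lists and the first gene of each list that was not called. It also took the first 2 cartilage genes by p and the genes nearest in pattern. Candidates for the nearest genes had an average log2 CPM of at least 2, leaving out SOX genes, predicted genes and pseudogenes. The members and lists were chosen with earlier results of these data known. No batch is given in the labels, so none was tested. The numbers of the replicates pair nothing in the labels.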

Additional observations from a re-analysis of the deposited data

Results flagged for a closer look

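The row for mCherry, a fluorescent reporter outside the tested genes, held 8 counts in knockout replicate 3, above the 3 counts that a count of 0 allows. It held 1 count in knockout replicate 2 and none in the other 4 libraries. Rows for rtTA3, OVA and tdTomato had no counts in any library.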

How the results depend on the processing

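Over 13 alternatives and 12 SOX genes, 140 values kept their direction and side of the threshold, 8 newly passed it in the same direction, 1 no longer passed it and 7 changed sign, of which Sox4 and Sox9 also newly passed. Sox2, Sox7, Sox13, Sox18 and Sox21 passed in all 13. Scaling to the epithelial list called 13788 genes in place of 5848, of which 318 were higher (2519 before) and 13470 lower (3329 before), 8 SOX members in place of 5, and 6 partner factors in place of 2. Under it the log2 fold changes of Sox4 (-0.87), Sox6 (-1.08), Sox9 (-0.73) and Sox11 (-0.42) changed sign. Sox6 was also negative without knockout replicate 3 (-0.05), without overexpression replicate 1 (-0.06) and without overexpression replicate 3 (-0.12), with a range of -0.12 to 0.47 over the fits that left out a library; the cause was not tested. Leaving out each library gave 4230 to 5821 called genes, 1446 (without knockout replicate 2) to 2599 higher, 2784 to 3256 lower, 5 or 6 SOX members, 1 or 2 partner factors and 2 or 3 TCF/LEF genes. Sox5 (adjusted p = 0.0976) was called in 5 alternatives: epithelial scaling (0.000289), no filter (0.0418), the replicate block, DESeq2 (0.0476) and without overexpression replicate 3 (0.0201). DESeq2 also called Sox11 (0.0422).

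With the replicate number as a block, 5593 genes and 6 SOX members passed, the added member being Sox5 (adjusted p = 0.0248). Same-numbered libraries share only a number: their deviations from the group means correlated at 0.05, 0.02 and -0.04 across genes for numbers 1, 2 and 3, and knockout library 2 correlated best with overexpression library 3. At this depth, differences between SOX genes at or under 3 counts in both groups were not detectable.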
